A study of Homo sapiens with 18 samples.

Results

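The EGFR locus was taken as every accessible region of chromosome 7 that overlapped an interval of 500 kb in the human genome build hg19 (GRCh37), from 186.7 kb before to 313.3 kb after the EGFR start site, a choice by position that used no measured value. It held 39 of the 115087 regions measured and of the 6552 on chromosome 7. The assay was ATAC-seq, where Tn5 transposase cuts accessible DNA and leaves sequencing adapters behind, and the cells were the established head and neck squamous cell carcinoma (HNSCC) lines SCC1, SCC6 and SCC25. Each line received cetuximab, an antibody that blocks EGFR, at 100 nM every day for 5 days, or PBS as the untreated control. The 17 libraries used formed 6 groups of 3 replicates, apart from SCC1 PBS, which had 2 (replicates 1 and 3). Replicate 2 of that group was not analysed here. The labels do not say whether replicates were separate cultures, so each p-value measures the spread between these libraries, which may be technical.

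EGFR is a receptor tyrosine kinase on the surface of epithelial cells. Ligands such as EGF and TGFA drive it into dimers, and the kinase then signals through RAS and MAPK, PI3K and AKT, and STAT3. Most HNSCC tumours make large amounts of EGFR, the gene is amplified in a part of them, and cetuximab is used in their treatment. The EGFR start site lies in a CpG island with GC boxes and no TATA box, and the long first intron is known for its enhancers.

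EGFR spans positions 55086710 to 55279321 on the plus strand, with 28 exons in the transcript used here (GENCODE release 44 mapped to GRCh37) and a first intron of 122.92 kb. Of the 39 regions, 10 lay upstream, 22 in the gene and 7 downstream. The first intron alone held 17, introns 4, 11 and 20 held 3 together, and 2 covered an exon, namely the region over the start site and exon 1 (chr7:55086350-55087022) and a region over exon 22. Regions are named below by the distance of their centre from the EGFR start site, so that +24.9 kb lies downstream in the direction of transcription. A further EGFR transcript, EGFR-205, starts at 55177416 beside the region at +90.5 kb, and the long noncoding RNAs EGFR-AS1 (55247443 to 55256670) and ELDR (55303658 to 55323328) lie over the regions at +167.3 kb and +236.3 kb. The nearest protein-coding genes are SEC61G, whose near end is at 54827667, and LANCL2, which starts at 55433030, and both lie outside the interval.

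The sequences below were read from the plus strand of GRCh37 for the start site and for 4 regions on which the results turn, to show which letters of known transcription factor sites they hold. The first is the 250 bases directly upstream of the EGFR start site, with GC boxes (GGGCGG, bound by SP factors) and TFAP2 letters (GCCNNNGGC) of either strand in capitals. The others are the middle 250 bases of each region, with AP-1 letters (TGANTCA, the site of FOS and JUN dimers) and TEAD letters (GGAATG, the site of the YAP partner factors) of either strand in capitals. No 2 of the capitalised matches overlap.
EGFR promoter (chr7:55086460-55086709): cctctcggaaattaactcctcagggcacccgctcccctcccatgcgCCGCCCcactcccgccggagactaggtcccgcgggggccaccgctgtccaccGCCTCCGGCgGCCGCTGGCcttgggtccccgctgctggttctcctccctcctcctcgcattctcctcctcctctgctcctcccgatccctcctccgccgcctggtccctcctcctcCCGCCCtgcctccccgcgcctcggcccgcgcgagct
Region at -23.0 kb (chr7:55063588-55063837): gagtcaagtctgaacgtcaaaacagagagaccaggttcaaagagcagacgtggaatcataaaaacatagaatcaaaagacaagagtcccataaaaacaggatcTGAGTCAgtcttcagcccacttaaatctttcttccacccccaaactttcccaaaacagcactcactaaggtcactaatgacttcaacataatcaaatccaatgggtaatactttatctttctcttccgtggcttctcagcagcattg
Region at +24.9 kb (chr7:55111444-55111693): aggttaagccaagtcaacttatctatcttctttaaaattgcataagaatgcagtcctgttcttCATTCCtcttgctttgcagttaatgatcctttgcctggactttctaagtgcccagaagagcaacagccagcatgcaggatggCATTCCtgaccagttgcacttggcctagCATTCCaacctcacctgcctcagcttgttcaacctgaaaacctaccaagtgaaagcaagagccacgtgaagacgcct
Region at +55.2 kb (chr7:55141750-55141999): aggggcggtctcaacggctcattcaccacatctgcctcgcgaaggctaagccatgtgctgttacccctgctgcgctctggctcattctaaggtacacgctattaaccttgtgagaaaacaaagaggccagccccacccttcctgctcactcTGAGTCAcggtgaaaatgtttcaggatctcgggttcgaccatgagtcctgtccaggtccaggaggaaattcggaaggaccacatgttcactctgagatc
Region at +289.3 kb (chr7:55375905-55376154): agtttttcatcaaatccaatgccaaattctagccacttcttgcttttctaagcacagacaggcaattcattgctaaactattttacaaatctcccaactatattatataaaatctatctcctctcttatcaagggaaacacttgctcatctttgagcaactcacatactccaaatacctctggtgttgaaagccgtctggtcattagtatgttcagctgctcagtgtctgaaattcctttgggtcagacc

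The EGFR promoter sequence was 73.6% G and C and held 2 GC boxes and 2 TFAP2 matches. The regions at -23.0 and +55.2 kb held 1 AP-1 match each, the region at +24.9 kb held 3 TEAD matches, and the region at +289.3 kb held neither. Over the middle 250 bases of each region, AP-1 letters stood in 10 of the 39 regions (25.6%) against 29.3% of all 115087 regions, and TEAD letters in 8 (20.5%) against 19.4%. GC boxes stood in 4 (10.3% against 14%), TFAP2 letters in 4 (10.3% against 10.3%), RUNX letters (TGTGGT) in 5 (12.8% against 20.2%) and forkhead letters (TGTTTAC) in 1 (2.56% against 6.3%). A match of letters is a description and does not show that a factor was bound.

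The signal is the number of reads in a region, scaled for library size by the authors. Reads in regions numbered 2194851 to 15017130 per library, 1 read was worth 0.331 to 1.95 units of signal, and libraries had 7.14% to 28.8% of all regions at the floor of 1 read. The shallowest library was SCC1 cetuximab replicate 2. Promoters of squamous epithelium markers had a region for 10 of 10 genes, endothelium markers for 0 of 5, leukocyte markers for 2 of 6 (CD14 and CSF1R) and fibroblast markers for 4 of 7. The summed signal of the squamous list was 1049 to 1457 in the SCC1 cetuximab libraries and 813 to 979 in SCC1 PBS, did not separate the groups in SCC6 (605 to 661 and 637 to 648) or SCC25 (533 to 709 and 578 to 651), and its part in the SCC1 results was not tested.

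The 39 regions were 74 to 1440 bases wide, with a median of 401 against 258 over all regions. Their median signal over all libraries was 60.6 against 22.4, and their median GC content 46.6% against 46.0%. In the peak lists made for each library, 6 regions had a peak in all 17 libraries, at -51.4, +24.9, +90.5, +114.4, +167.3 and +236.3 kb. The region over the promoter had a peak in 16, the exception being SCC1 cetuximab replicate 2, and the region at +33.3 kb had a peak in none. A peak in at least 1 library of the line was found at 22 regions for SCC1, 31 for SCC6 and 32 for SCC25.

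**Figure D1:**
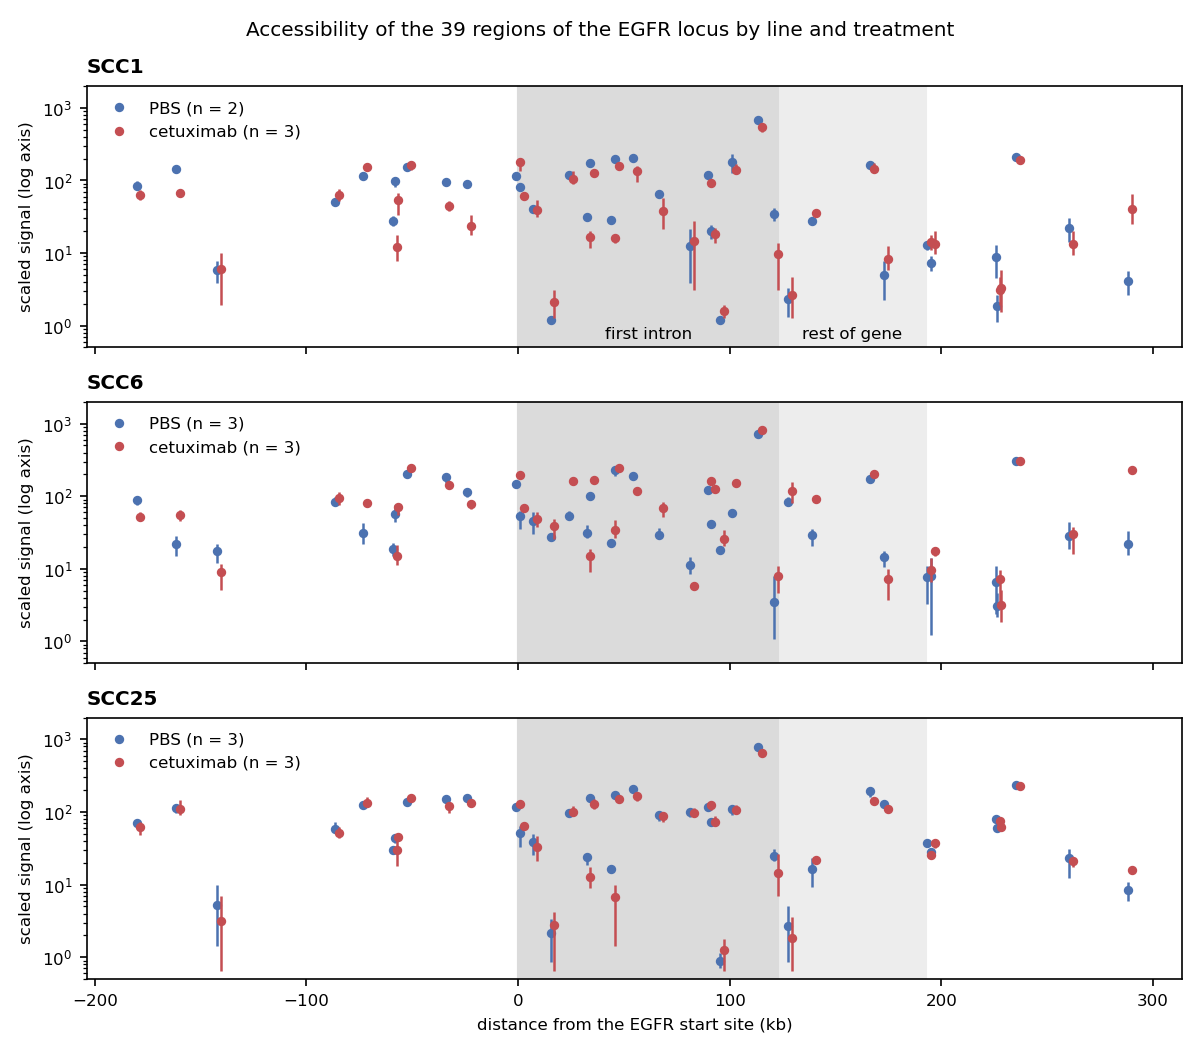
Mean scaled signal (log axis) of the 39 regions of the EGFR locus against the distance of each region from the EGFR start site in kb, for PBS (blue) and cetuximab (red) in each line, with bars from the lowest to the highest library. Dark shading marks the first intron and light shading the rest of the gene. The region at +114.4 kb stands highest in every line, with group means between 539 and 828.

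The region of highest signal in the locus was not the promoter but the region at +114.4 kb, in the first intron (chr7:55200376-55201815). It was also the widest, at 1440 bases against 673 for the promoter region, and signal is not divided by width. Its mean signal was 701 over all libraries, with PBS means of 675 ± 95.8 (SD, n = 2) for SCC1, 719.5 ± 11.8 (n = 3) for SCC6 and 775 ± 47.1 (n = 3) for SCC25. The order SCC1, SCC6, SCC25 did not exceed the spread, since no pair of lines differed (log2 difference 0.10 to 0.20, adjusted p = 0.325, 0.0546 and 0.227). All adjusted p-values of regions come from limma on log2(signal + 1) with Benjamini-Hochberg adjustment over all regions tested, and a difference passes below 0.05. The regions next in mean signal were at +236.3 kb, over the start of the noncoding ELDR, and at +46.6 kb in the first intron.

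The question of the main comparison was whether 5 days of EGFR blockade changed accessibility at the gene of the blocked receptor. At the EGFR promoter region, accessibility was higher after cetuximab in SCC1 and SCC6, and in SCC25 the groups overlapped. In SCC1 the signal was 124 and 109 in the PBS libraries and 207, 134 and 202 in the cetuximab libraries. In SCC6 it was 144, 139.8 and 162 with PBS and 205.1, 185.7 and 205.0 with cetuximab. In SCC25 it was 131.5, 110.3 and 111 with PBS and 118, 133.5 and 131 with cetuximab. Every treated SCC1 and SCC6 library thus stood above every control of its line, and the treated SCC25 libraries did not. Such separation was common in the locus for SCC1 and SCC6. In SCC1, groups did not overlap at 6 regions with treated libraries higher and 15 with them lower, of 35 tested. In SCC6 these counts were 17 and 7 of 36. The share over all regions is not given, so separation of groups is a description here and below, not support for a call.

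At the promoter the SCC1 log2 difference was 0.61 (SE 0.22, adjusted p = 0.0498). That of SCC6 was 0.42 (SE 0.13, adjusted p = 0.00982) and that of SCC25 0.12 (SE 0.15, adjusted p = 0.79). Over all lines, with the line as a covariate, it was 0.37 (adjusted p = 0.0246), a call lost with libraries scaled to reads in regions that had no peak in the line (0.32, adjusted p = 0.0972), with the replicate number as a block (adjusted p = 0.0595) and without SCC1 PBS replicate 3 (adjusted p = 0.062). The test of whether the effect differed between lines did not pass (adjusted p = 0.315). In SCC1, promoter regions of all genes were higher in 12.6% and lower in 2.12% of 16738 tested, with a median log2 difference of 0.16, and with the trend of the differences with GC content removed the EGFR promoter gave 0.26 (adjusted p = 0.474). In SCC6 they were higher in 5.65% and lower in 10.9% of 16199. The SCC1 call was lost in 9 of 17 alternative settings, among them leaving out any SCC1 library other than cetuximab replicate 2, and the SCC6 call with libraries centred on their medians (0.24, adjusted p = 0.166), with DESeq2 (0.33, adjusted p = 0.0907) and with all libraries in 1 fit (adjusted p = 0.0624).

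Of the other start sites of the interval, 1 passed in a line. The region at +90.5 kb, beside the start of EGFR-205, rose in SCC6, where PBS libraries were at 118, 127 and 116 and cetuximab libraries at 152.5, 179 and 159 (log2 difference 0.43, SE 0.14, adjusted p = 0.0151). It did not pass in SCC1 (-0.35, adjusted p = 0.419) or SCC25 (0.11, adjusted p = 0.818), and centring the libraries, DESeq2, the fit of all libraries or leaving out SCC6 cetuximab replicate 2 ended the SCC6 call. The region over the ELDR start at +236.3 kb differed by between -0.13 and -0.0073 in the 3 lines, with none passing (adjusted p of 0.743 or more). The region at -85.6 kb, which lies by the start of a noncoding transcript, did not pass in any line either (adjusted p of 0.578 or more). The region over exon 22 at +173.8 kb, which also holds the start of EGFR-209, gave 0.72 (SE 0.80, adjusted p = 0.637) in SCC1 and -0.98 (SE 0.48, adjusted p = 0.123) in SCC6 at signals of 17.4 or less, and -0.21 (adjusted p = 0.582) in SCC25.

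**Figure D2:**
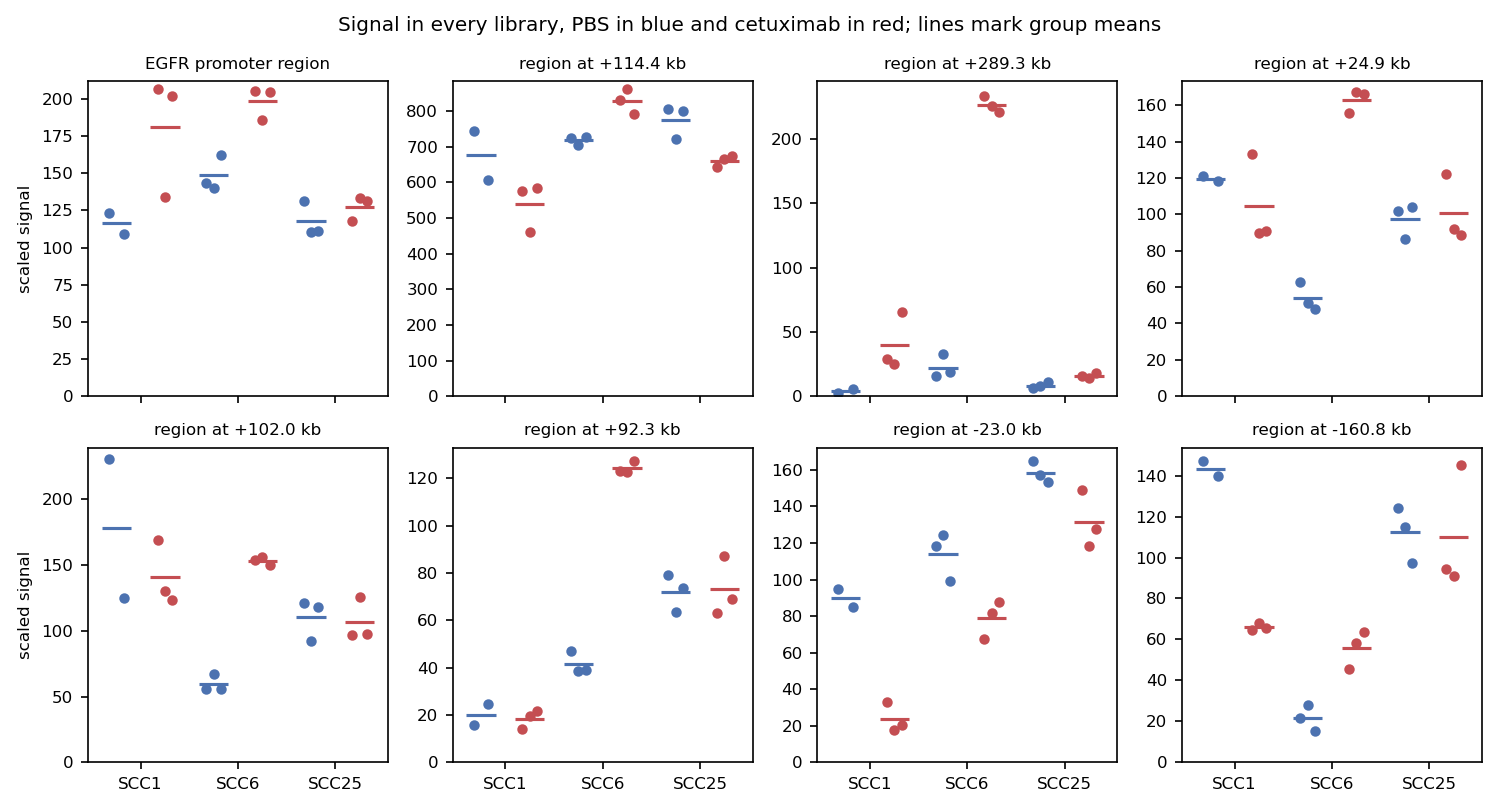
Scaled signal in every library for 8 regions of the EGFR locus, with PBS in blue, cetuximab in red and a line at each group mean. At +289.3 kb the 3 SCC6 cetuximab libraries stand between 221.5 and 233, and the 3 SCC6 PBS libraries between 15.7 and 32.8.

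Across the locus the lines differed in how many regions were called and at which positions. Call counts also depend on library number and depth, whose part was not tested. They can depend on signal and width too, and the shares of all regions are not matched for these. The 39 regions had a median signal of 60.6 against 22.4 and a median width of 401 against 258 bases. SCC1 PBS had 2 libraries. Reads in regions of SCC25 numbered 3214656, 7385401 and 2513828 with cetuximab, and 13408698, 6533269 and 5509462 with PBS. From its own differential analysis, the paper reports the most remodelled promoter sites in SCC25, all less accessible with cetuximab. In SCC6, 13 of 36 tested regions rose and 5 fell, against 16.9% higher and 10.6% lower over all regions tested. In SCC1, 2 of 35 rose and 6 fell, against 4.57% and 6.56%. In SCC25, 0 of 36 passed in either direction, against 0.0405% higher and 0.275% lower. With shares of all regions this low, 0 of 36 does not set the locus apart. In that line, edgeR and DESeq2 on the recovered reads also called 0 of these regions. Their shares of all regions are not set beside this count. Over the locus the median log2 difference was 0.32 in SCC6 (0.11 over all regions), -0.32 in SCC1 (-0.091) and -0.065 in SCC25 (-0.083).

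The summed signal of the 39 regions gives the same order as a description. It was 3411 ± 57.4 (SD, n = 3) with PBS and 4330 ± 93.8 (n = 3) with cetuximab in SCC6, 3431 ± 122 (n = 2) and 2821 ± 262 (n = 3) in SCC1, and 3878 ± 225 (n = 3) and 3555 ± 13.6 (n = 3) in SCC25. The split of calls in SCC6 was 9 higher and 6 lower with libraries centred on their medians, and 19 higher and 2 lower with libraries scaled to their reads in the regions of the table that had no peak in the line (background scaling). In SCC25 the latter scaling gave 12 lower and 0 higher, and it moved the median of all regions from -0.083 to -0.37. Shares of all regions under these scalings are not set beside the splits, which describe only how the counts depend on scaling. In SCC1 the calls fell to 2 without SCC1 PBS replicate 1 or replicate 3 and to 5 without SCC1 cetuximab replicate 1.

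**Figure D3:**
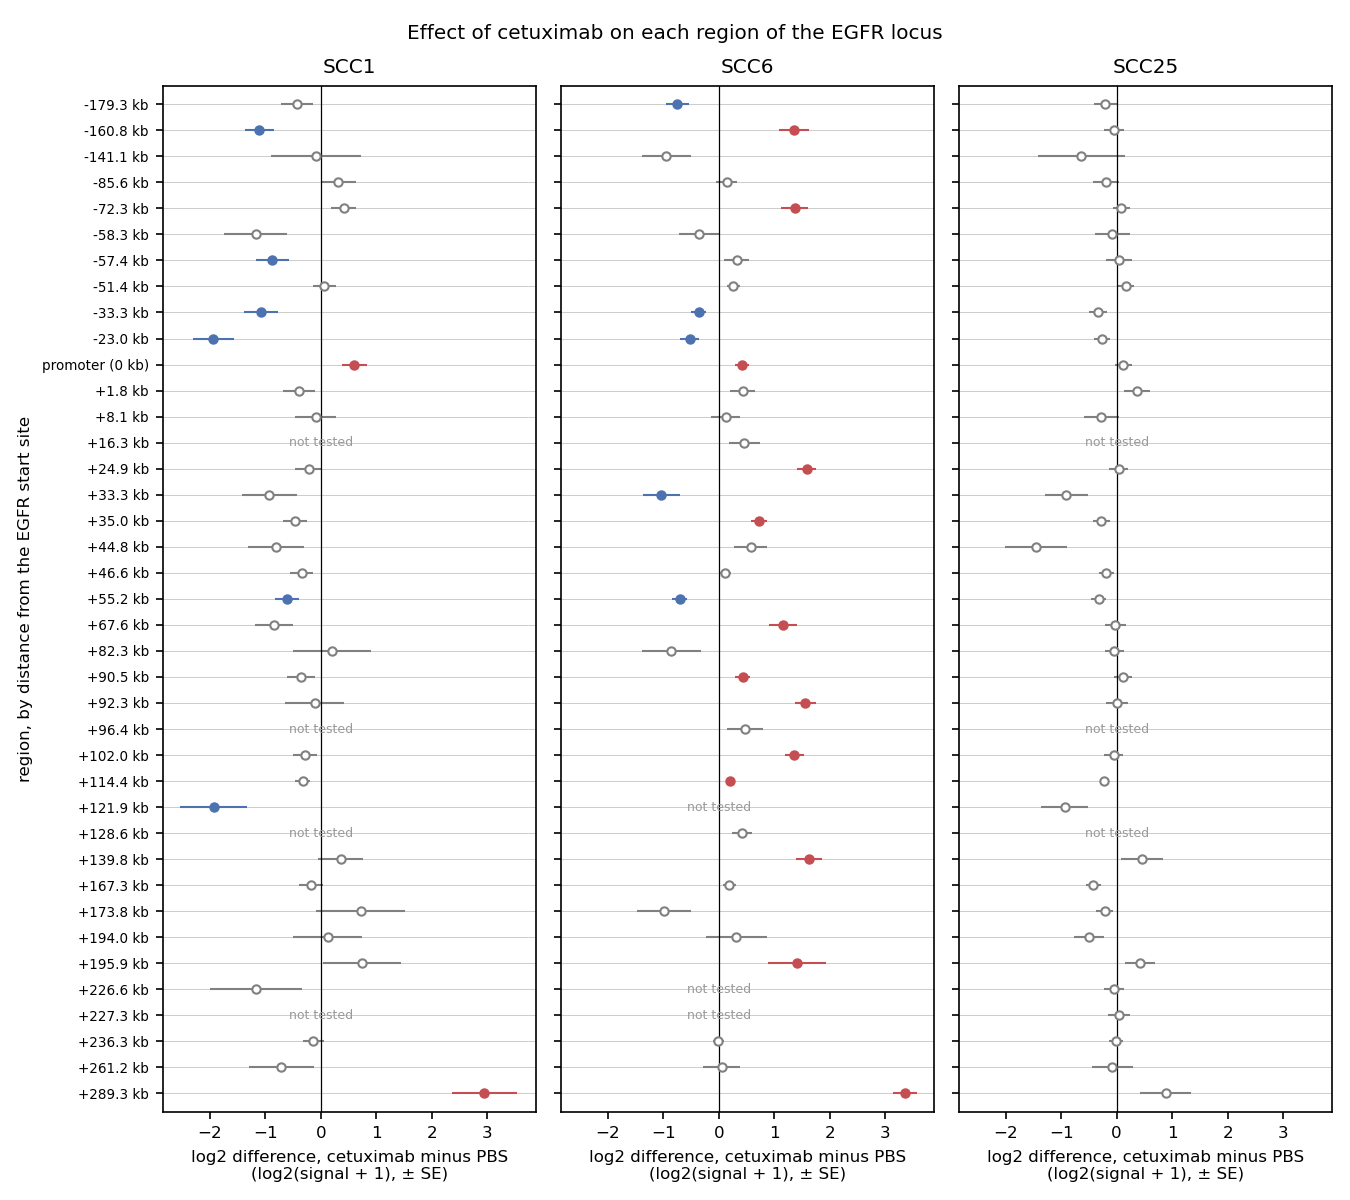
Log2 difference between cetuximab and PBS on the log2(signal + 1) scale, with its SE, for each region in order of distance from the EGFR start site. Filled points passed an adjusted p of 0.05 (red higher, blue lower), open points did not, and regions below the filter on low signal are marked as not tested. SCC6 shows 13 red and 5 blue points, SCC1 shows 2 and 6, and SCC25 shows none.

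The regions that rose in SCC6 lay on both sides of the promoter and in the first intron. The largest rise in the locus was at +289.3 kb, an intergenic region between ELDR and LANCL2 (chr7:55375740-55376319), which had the sequence without AP-1 or TEAD letters printed above. In SCC6 its signal was 15.7, 32.8 and 18.5 with PBS and 233, 226 and 221.5 with cetuximab, a 10.2-fold rise (log2 difference 3.36, SE 0.21, adjusted p = 2.7e-17). In SCC1 the PBS libraries were at 2.6 and 5.58, which is 2 and 5 reads, and the cetuximab libraries at 29.2, 25.3 and 65.7 (log2 difference 2.95, SE 0.58, adjusted p = 5.67e-05). In SCC25 it was 6.03, 7.93 and 11.03 with PBS and 15.5, 14.3 and 17.7 with cetuximab, groups that did not overlap but whose difference of 0.88 (SE 0.46) did not pass (adjusted p = 0.417). Over all lines the difference was 2.36 (adjusted p = 0.000133), and it passed under all 28 alternatives. The peak lists held a peak there in 4 of the 6 SCC6 libraries, 1 of the 5 SCC1 libraries and 0 of the 6 SCC25 libraries.

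In the first intron, the region at +24.9 kb, whose middle holds the 3 TEAD matches (chr7:55111339-55111798), had a peak in every library and rose 2.99-fold in SCC6. Its SCC6 signal was 62.8, 51.5 and 47.9 with PBS and 156, 167 and 166 with cetuximab (log2 difference 1.58, SE 0.17, adjusted p = 4.4e-10). The SCC6 PBS libraries were the low ones of the experiment at this region, since SCC1 PBS stood at 121 and 118 and SCC25 PBS at 102, 86.5 and 104. With cetuximab the SCC6 level was above that of both other lines, where treated and control libraries overlapped (log2 difference -0.22, adjusted p = 0.642, and 0.04, adjusted p = 0.953).

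The regions at +92.3 and +102.0 kb in the same intron also rose in SCC6. At +92.3 kb the SCC6 libraries moved from 47.1, 38.8 and 39.2 to 123, 122.5 and 127 (log2 difference 1.56, SE 0.19, adjusted p = 1.41e-08). At +102.0 kb they moved from 55.6, 66.9 and 55.5 to 153.5, 156 and 149.8 (log2 difference 1.36, SE 0.17, adjusted p = 1.3e-08). In intron 11, the region at +139.8 kb moved from 20.5, 32.1 and 35.9 to 104, 80.8 and 88.9 (log2 difference 1.63, SE 0.24, adjusted p = 4.73e-07). Upstream, the region at -72.3 kb moved from 42.3, 30.1 and 21.8 to 74.8, 75.2 and 90.9 (log2 difference 1.37, SE 0.24, adjusted p = 1.77e-05). In all of these the SCC6 groups were apart, and none passed in SCC1 (adjusted p of 0.247 or more) or SCC25 (0.637 or more).

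The region of highest signal, at +114.4 kb, rose in SCC6 on a smaller scale. In SCC6 it went from 725, 706 and 728 to 829, 862.5 and 792, a difference of 0.20 (SE 0.062, adjusted p = 0.0123). In SCC1 it went from 743 and 607.5 to 575, 459 and 584 (-0.32, adjusted p = 0.0956), and in SCC25 from 805, 720 and 799 to 644, 665 and 673 (-0.23, adjusted p = 0.189). The groups did not overlap in any line, up in SCC6 and down in both others, and the effect differed between lines (adjusted p = 0.011, lost with libraries centred on their medians). In SCC6 the value was 0.028 with libraries centred on their medians, and the call was also lost with edgeR (0.14), DESeq2 (0.10), the fit of all libraries and without SCC6 cetuximab replicate 2.

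The same 3 regions fell in SCC1 and SCC6, of 8 regions that changed in SCC1, 18 in SCC6 and 6 in both (11.1% and 27.5% of all regions changed in SCC1 and SCC6). The share of all regions changed in both lines is not given, so the overlap is a description and not an excess. These 3 regions lie at -23.0 and -33.3 kb upstream of the start site and at +55.2 kb in the first intron, and over all lines each fell under every one of the 28 alternatives. Within a line the calls were less firm. In SCC1 that at -23.0 kb passed in all 17 alternatives, that at -33.3 kb was lost in 4 (without either PBS library, with the trend with GC content removed and with DESeq2) and that at +55.2 kb in 12. In SCC6 those at -23.0 and -33.3 kb were lost in 5 and 7 of 18, and that at +55.2 kb passed in all 18. At -23.0 kb (chr7:55063399-55064025, with its AP-1 match) the SCC1 libraries went from 95.0 and 84.9 to 33.0, 17.5 and 20.3, a log2 difference of -1.93 (SE 0.37, adjusted p = 2.78e-05). In SCC6 they went from 118, 124.5 and 99.0 to 67.7, 81.7 and 87.6 (-0.52, SE 0.17, adjusted p = 0.0189). In SCC25 they went from 165, 157 and 153.5 to 149, 118.5 and 127.5, groups that were also apart but whose difference of -0.27 did not pass (adjusted p = 0.431). The effect differed between the lines (adjusted p = 0.000755), with the larger fall in SCC1.

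At +55.2 kb (chr7:55141621-55142128, also with an AP-1 match) treated libraries were lower in each line. The signal went from 213 and 193 to 156, 95.4 and 159.6 in SCC1 (log2 difference -0.60, SE 0.21, adjusted p = 0.0478) and from 207, 200.7 and 166 to 104, 128 and 119.7 in SCC6 (-0.70, SE 0.14, adjusted p = 9.04e-05). In SCC25 it went from 212.5, 191 and 209.5 to 181, 141 and 170.0 (-0.32, SE 0.13, adjusted p = 0.297). The groups did not overlap in any of the 3 lines, and a difference of the effect between lines did not pass (adjusted p = 0.493). At -33.3 kb the SCC1 signal fell from 91.1 and 98.3 to 44.4, 52.5 and 37.6 (-1.07, SE 0.31, adjusted p = 0.0091), and in SCC6, where the groups overlapped, from 205.4, 154 and 200.1 to 147.5, 156 and 129 (-0.36, SE 0.13, adjusted p = 0.0376).

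Over all lines, 4 regions were higher (+289.3, -72.3, +139.8 kb and the promoter) and 5 lower of 37 tested, against 5.14% and 7.04% of all regions. The split was 5 higher and 4 lower with libraries centred on their medians, and 2 higher and 5 lower with background scaling. The fit with the replicate number as a block called 1 higher and 3 lower. Shares of all regions under these alternatives are not set beside the splits. Of the 4 higher regions over all lines, 1 held AP-1 letters in its middle 250 bases and 0 TEAD letters, and of the 5 lower regions 2 held AP-1 and 2 TEAD letters. In SCC6, AP-1 letters stood in 2 of the 13 regions that rose, 2 of the 5 that fell and 5 of the 18 that did not pass.

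The region at -160.8 kb (chr7:54925709-54926170) moved in opposite directions in 2 lines. In SCC1 it fell from 147 and 139.6 to 64.7, 68.1 and 65.7 (log2 difference -1.10, SE 0.26, adjusted p = 0.00117), and in SCC6 it rose from 21.8, 28.1 and 15.2 to 45.5, 58.5 and 63.8 (1.35, SE 0.28, adjusted p = 0.000157). In SCC25 it was at 124, 114.7 and 97.5 with PBS and at 94.2, 91.2 and 145 with cetuximab (-0.05, adjusted p = 0.933). The PBS level in SCC6 was far below those of the other lines, and after treatment the SCC1 and SCC6 levels were close, at means of 66.2 and 55.9. The SCC1 call was lost without SCC1 PBS replicate 1 or without replicate 3.

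Effects differed between lines at 11 of 37 regions (29.7%), against 13.2% of all regions tested, a share not matched for signal or width. Besides those at -160.8, -23.0, +24.9, +92.3, +102.0, +114.4 and +289.3 kb, they included +35.0 kb (log2 difference -0.46, 0.73 and -0.28 in SCC1, SCC6 and SCC25, adjusted p = 0.000476), +67.6 kb (-0.84, 1.16 and -0.023, adjusted p = 0.00357) and -72.3 kb (0.41, 1.37 and 0.084, adjusted p = 0.00524). The remaining member, at +121.9 kb at the end of the first intron, fell in SCC1 from 41.6 and 27.9 to 14.0, 11.7 and 3.13 (-1.93, SE 0.60, adjusted p = 0.0185), a change lost in 5 of 17 alternatives (without cetuximab replicate 3 or either PBS library, with the trend with GC content removed and with DESeq2). At the 11 regions SCC6 had a positive difference wherever it was tested, other than at -23.0 kb. The same count over all regions whose effect differed is not given, so this is a description only. In SCC1 the region at -57.4 kb also fell, from 82.0 and 112.8 to 63.5, 33.1 and 67.3 (-0.87, SE 0.30, adjusted p = 0.035), and this call was lost in 10 of 17 alternatives.

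The lines were then compared at rest, in the PBS libraries. Of 37 regions tested, 9 were higher and 8 lower in SCC6 than in SCC1, against 30.7% and 30.5% of all regions. Between SCC25 and SCC1, 9 were higher and 2 lower (28.2% and 23.1%), and between SCC25 and SCC6, 16 were higher and 9 lower (36.7% and 32.1%). Centring the libraries turned the SCC25 and SCC1 split to 9 higher and 11 lower, and background scaling turned it to 24 and 0, and that of SCC6 and SCC1 to 18 and 4. Background scaling also raised the medians of all regions for these pairs, as given below. Shares of all regions under these scalings are not set beside the splits, which describe only how the counts depend on scaling. The EGFR promoter was close between lines, at 116.5 ± 10.0 (SD, n = 2) in SCC1, 118 ± 12.0 (n = 3) in SCC25 and 149 ± 11.9 (n = 3) in SCC6. SCC25 and SCC1 did not differ (log2 difference 0.01, adjusted p = 0.953), SCC6 and SCC1 missed the threshold (0.35, adjusted p = 0.0539), and SCC25 was lower than SCC6 (-0.34, adjusted p = 0.0348). The last call was lost in 4 of 17 alternatives (without SCC6 PBS replicate 1 or 3, or SCC25 PBS replicate 2 or 3). Promoter regions of all genes had a median of -0.27 in SCC25 against SCC6, with 21.2% higher and 40.8% lower.

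Regions accessible in 1 line and near the floor in the others made the widest gaps. In SCC25, the region over exon 22 at +173.8 kb (chr7:55260276-55260738) stood at 136, 128 and 119.6, and the other PBS libraries were between 2.23 and 17.4. Its peaks were found in all 6 SCC25 libraries and in 0 of the other lines, and the log2 difference was 4.59 (SE 0.40, adjusted p = 3.02e-07) from SCC1 and 3.07 (SE 0.36, adjusted p = 1.57e-06) from SCC6. The neighbouring regions at +226.6 and +227.3 kb, inside ELDR, were high in SCC25 as well. The first stood at 82.2, 79.3 and 75.5 there and at 2.42 to 13.0 in the other PBS libraries, and the second at 63.3, 59.1 and 60.2 against 1.12 to 4.68. The region at +82.3 kb in the first intron was at 113, 97.3 and 86.5 in SCC25 and at 3.9 to 21.2 in the others. None of the 4 passed for cetuximab in SCC25 (adjusted p of 0.582 or more).

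SCC6 had its own set of narrow regions. At +128.6 kb in intron 4 its PBS libraries stood at 99.1, 74.3 and 80.5, against 1.3 and 3.35 in SCC1 and 2.26, 5.05 and 0.848 in SCC25. The log2 difference of 4.75 (SE 0.51, adjusted p = 9.65e-07) from SCC1 rests on 1 and 3 reads in the SCC1 libraries and depends on the added 1. At +16.3 kb the SCC6 PBS libraries stood at 31.4, 27.4 and 23.9 and both SCC1 PBS libraries at the floor of 1 read, so that SCC6 was at least 7.61-fold higher when 3 reads are allowed in each SCC1 library. At +96.4 kb this bound was 4.95-fold. These 3 regions were 199, 74 and 197 bases wide from left to right, and they had the lowest GC contents of the 39, at 28.3%, 30.1% and 32.1%. All their peaks, in 5, 2 and 6 libraries, came from SCC6, and none passed for cetuximab.

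Other regions were low in SCC6 alone. At -160.8 kb and -72.3 kb the SCC6 PBS means were 21.7 and 31.4, against 143 and 114 in SCC1 and 112 and 126 in SCC25. At +121.9 kb the SCC6 PBS libraries were at 1.21, 8.03 and 1.09 against 27.9 to 41.6 in SCC1. The region at +102.0 kb was at 230 and 125 in SCC1 PBS, which gave SCC25 a lower level (log2 difference -0.63, adjusted p = 0.0306) that was -0.19 without SCC1 PBS replicate 1 and 0.105 with background scaling. The region at -57.4 kb was higher in SCC1 than in SCC25 (-1.11, SE 0.26, adjusted p = 0.00206).

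**Figure D4:**
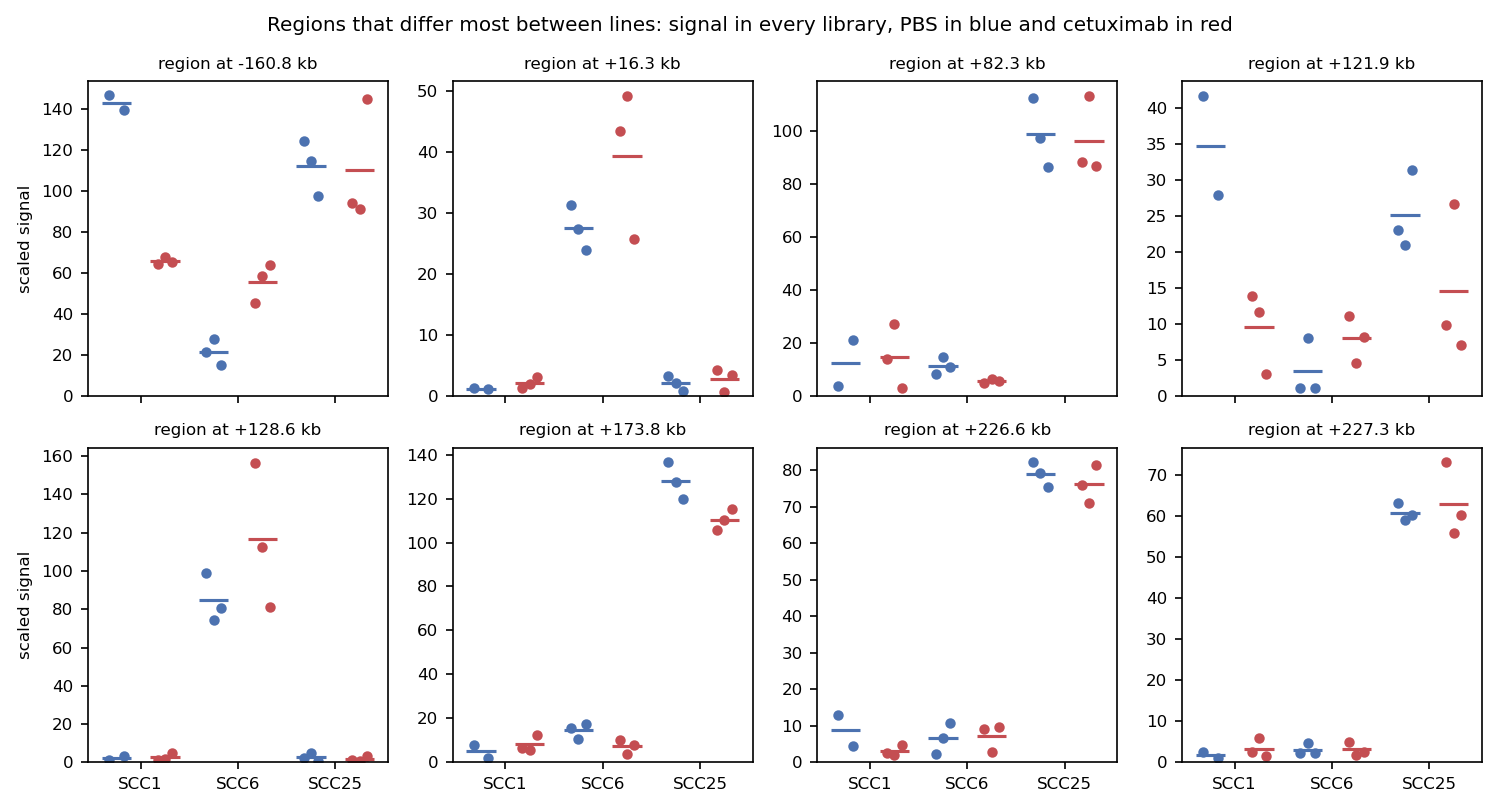
Scaled signal in every library for 8 regions of the EGFR locus that differ most between lines, with PBS in blue, cetuximab in red and a line at each group mean. The regions at +16.3 and +128.6 kb are high only in SCC6 libraries, and those at +82.3, +173.8, +226.6 and +227.3 kb only in SCC25 libraries.

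The comparison of lines also asked whether 1 line carried a gain of signal over the whole locus, as extra copies of the gene would give. In PBS libraries the median log2 difference over the locus was 0.07 for SCC6 minus SCC1, 0.07 for SCC25 minus SCC1 and 0.10 for SCC25 minus SCC6. Over chromosome 7 these medians were 0.024, -0.32 and -0.36, and over all regions -0.060, -0.036 and 0.062. The 6 regions with a peak in every SCC6 and SCC1 library had a median of 0.10 (-0.16 over all such regions), and the 7 regions without a peak in either line one of -0.023 (-0.68). In steps of 1 Mb along chromosome 7 with at least 20 regions, the step that holds the EGFR start site (59 regions) was at 0.056, 0.11 and 0.10, with 58, 22 and 25 of the 118 steps above it. The lowest steps stood at -1.34, -1.30 and -1.66 and the highest at 1.65, 2.31 and 1.27. On the deposited scaling, the median at the EGFR step was below a log2 difference of 1 for each pair of lines. The steps were not computed with other scalings, and a gain of copies was not tested.

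**Figure D5:**
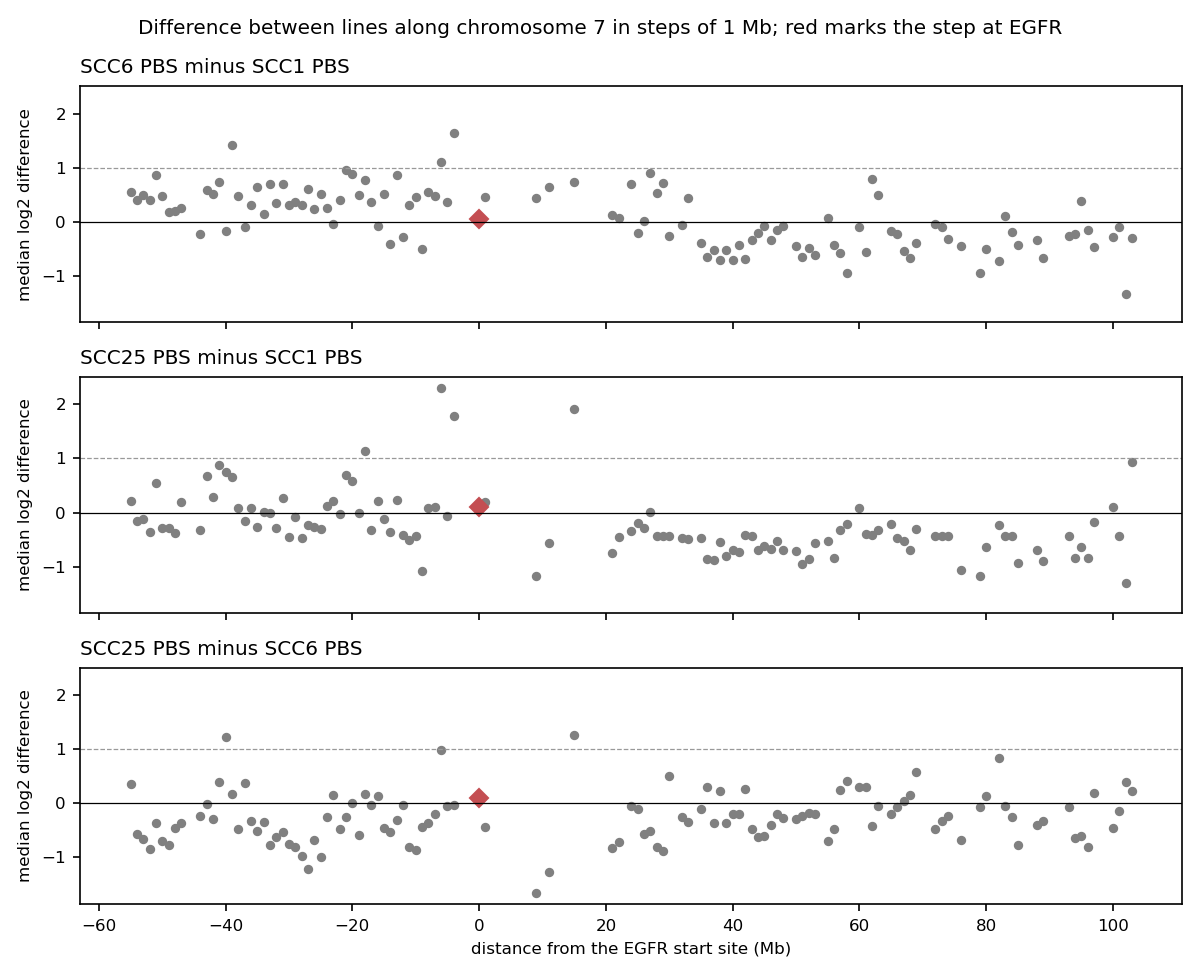
Median log2 difference between lines in the PBS libraries over steps of 1 Mb along chromosome 7, against distance from the EGFR start site in Mb, for steps with at least 20 regions. The red diamond is the step with the EGFR start site, at 0.056, 0.11 and 0.10, and the dashed line marks a log2 difference of 1.

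The flanks of the locus showed more. Within 5 Mb of the start site but outside the interval, the median difference was 0.52 for SCC6 minus SCC1, 0.50 for SCC25 minus SCC1 and -0.17 for SCC25 minus SCC6. Of the steps between the chromosome start and EGFR, 42 of 50 lay above 0 between SCC6 and SCC1, and of those beyond it 17 of 67. The promoters of neighbouring genes gave 10 higher and 2 lower of 12 genes in SCC6 against SCC1, with a median of 0.85 (0.045 over promoter regions, of which 28.5% were higher and 22.6% lower). In SCC25 against SCC1 they gave 2 higher and 0 lower (median 0.080, background 20.1% and 30.3%), and in SCC25 against SCC6 2 higher and 10 lower (median -0.82, background 21.2% and 40.8%). SEC61G, a subunit of the protein translocation channel, gave 0.62 (adjusted p = 0.000222) between SCC6 and SCC1, LANCL2 0.92 (adjusted p = 6.61e-06) and CHCHD2, a mitochondrial protein, 1.16 (adjusted p = 7.56e-06). VSTM2A and PHKG1 were the lower genes, and PSPH and CCT6A share 1 region. None of the 12 passed for cetuximab in any line.

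These medians depend on the scaling. With background scaling they were 0.78, 0.77 and 0.11 over the locus, while the medians of all regions moved to 0.63, 0.64 and 0.075, and with centring they were -0.018, -0.17 and -0.050. Background scaling takes the regions without a peak in each line, a different set per line. Its values between lines therefore do not rest on like regions. More copies of the locus and more open chromatin per copy cannot be told apart in these data.

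Promoters of the EGFR pathway were counted from a list of 56 genes, of which 54 had a promoter region and 52 were tested (51 in SCC6). The list used the promoter region of highest mean signal per gene, and the shares beside it cover every promoter region. Its calls come from the main fits alone, with no value here for the GC trend removed or a library left out. In SCC1, 11 of 52 rose and 0 fell, against 12.6% and 2.12% of all promoter regions. They included STAT3 (log2 difference 0.73, adjusted p = 0.00231) and STAT5B (1.89, adjusted p = 0.00434), the transcription factors that receptor kinases activate, the kinases AKT2, MAP2K1 and MAP2K2, HRAS, the adaptors SHC1 and GRB2, the AP-1 subunits FOS and FOSL1, and SOCS3, a feedback inhibitor of cytokine receptors. In SCC6, 0 rose and 12 of 51 fell, against 5.65% and 10.9%. They included the ligand genes EREG (-0.59, adjusted p = 0.0291) and BTC, the partner receptor ERBB2 (-0.53, adjusted p = 0.0287), ARAF and PIK3CA, the feedback genes DUSP4 (-0.69, adjusted p = 0.0341), SPRED2 and LRIG3, and EGR1 (-0.40, adjusted p = 0.00723) and FOSL1, both induced by MAPK signalling.

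FOSL1 thus rose in SCC1 (0.85, adjusted p = 0.00585) and fell in SCC6 (-0.59, adjusted p = 0.00898), and its effect differed between lines (adjusted p = 0.00204). In SCC25, 0 of 52 passed, against 0.024% of promoter regions higher and 0.042% lower. Over all lines SOCS3 (0.54, adjusted p = 0.00606) and the partner receptor ERBB3 (0.38, adjusted p = 0.0403) rose, against 2.3% of promoter regions higher and 2.58% lower. The ligand genes TGFA and AREG were at or near the floor in the table and were not tested, although the peak lists held a peak at the TGFA promoter in 14 libraries. EPGN and IER3 had no region. With 12 pathway promoters lower in SCC6 and the EGFR promoter higher, the EGFR promoter region had the opposite direction to the called pathway promoters of that line in the main fit. The EGFR promoter call was lost with centring, with DESeq2 and with all libraries in 1 fit. Promoter regions of all genes had a median log2 difference of -0.10 in SCC6.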

How the data were processed

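ATAC-seq libraries of SCC1, SCC6 and SCC25 cells were used as deposited. According to the submitters' processing notes and the study's methods, the authors trimmed reads with Trim Galore 0.5.0, aligned them to hg19 with Bowtie2 2.3.2, filtered them with Picard 2.18 and SAMtools 1.9, and used MACS2 (version not given in the sources used here) for broad peaks per library, which DiffBind merged. Per region and library, the deposited table holds a scaled signal. Dividing by the lowest value of a library gave whole reads (100% of values within 0.001), with 0 set to 1, and these were the recovered reads. The deposited peak lists also give fold enrichment as a ratio and −log10 of the p-value and q-value, and their positions and, at the EGFR start site, the fold were used. Region starts are printed as in the table, which takes the 0-based peak start in 96.4% of regions, so the first base is the printed start + 1.

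Signal was tested with limma 3.58.1 (trend, robust, two-sided) in R 4.3.3 on log2(signal + 1), with the lowest 25% of regions by mean left out and Benjamini-Hochberg adjustment over all regions tested at 0.05. Fold changes are on that scale and understate the change of low regions. Each line was fitted alone for cetuximab, all lines were fitted with the line as a covariate and for the interaction, and PBS libraries were fitted together for lines. The fits of each line were tested on simulated reads with large changes in regions with enough reads. That does not cover the small changes reported here or regions near the floor. Same-numbered treated and control libraries did not deviate together (r of -0.023 to 0.038), so the main fits have no block. Alternatives were other scalings (median centring, quantile, and background scaling to recovered reads in regions with no peak in a line), pseudocounts, filters, removal of the trend with GC content, a replicate block, all libraries in 1 fit, leaving out each library, and edgeR 4.0.16 and DESeq2 1.42.0 on recovered reads.

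Regions with printed values were those within 1 kb of a start site, up to 6 called per line and up to 4 called over all lines or by the interaction by smallest adjusted p, the 3 highest in mean signal, and the 3 highest and 3 lowest called per pair of lines. The regions at +96.4, +33.3, +67.6 kb and others beyond that rule were named after their values were seen, as were the motif letters. A promoter region lies within 1 kb of a start site of a protein-coding gene, and lists use the one with the highest mean signal per gene. The members, lists and tests were chosen with earlier results of these data known. Other steps used Python 3.11.15, pandas 2.3.3, NumPy 2.4.6, Matplotlib 3.10.9 and SciPy 1.17.1. Some members of the gene list and 1 region's sequence are not reported here.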

Additional observations from a re-analysis of the deposited data

Results flagged for a closer look

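At 11 regions of the EGFR locus the effect of cetuximab differed between the lines in limma's interaction test (with Benjamini-Hochberg adjustment over all regions tested). The adjusted p was 4.56e-05 at -160.8 kb, where the signal fell in SCC1 and rose in SCC6, and 0.000755 at -23.0 kb, where it fell most in SCC1. It was 4.77e-05 at +24.9 kb, 0.000291 at +102.0 kb, 0.000476 at +35.0 kb, 0.00184 at +92.3 kb and 0.00357 at +67.6 kb, first-intron regions that rose in SCC6 and passed in neither other line. It was 0.00524 at -72.3 kb, lost with the trend with GC content removed, and 0.011 at +114.4 kb, lost with centring, and both also rose in SCC6 alone by the per-line tests. At +289.3 kb it was 0.00397, with rises of 2.95 in SCC1 and 3.36 in SCC6 and a difference of 0.88 in SCC25 on the log2 scale. At +121.9 kb it was 0.0203, with a fall in SCC1 and SCC6 near the floor, and the call was lost in 7 of 26 alternatives.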

How the results depend on the processing

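Under the alternatives run, each count of changed regions stayed within 1.5 times its value and each median within the spread of libraries except as follows, and the causes were not tested unless named. The 8 regions changed in SCC1 became 5 without the filter on low regions (more regions tested), 4 with the trend with GC content removed, 4 with DESeq2 and 2 to 7 with 1 library left out. The 18 in SCC6 became 11 with all libraries in 1 fit. The 0 in SCC25 became 12 with background scaling, and that scaling moved the interaction from 11 to 20 and the 11 regions between SCC25 and SCC1 to 24, which centring moved to 20. With 1 library left out, the counts were 14 to 18 in SCC6, 8 to 10 over all lines, 10 to 12 for the interaction, and 9 to 12 between SCC25 and SCC1. With the replicate number as a block, the counts were 6 in SCC1, 18 in SCC6, 0 in SCC25 and 4 over all lines (9 without it), where the EGFR promoter did not pass; the libraries share only a number, and not every library correlated best with its own. The locus median between SCC6 and SCC1 was 0.50 in the cetuximab libraries, -0.018 with centring, 0.78 with background scaling, -0.023 in regions without a peak and 0.022 to 0.081 with 1 library left out. Between SCC25 and SCC1 it was -0.17 with centring, 0.77 with background scaling, -0.28 in regions without a peak, 0.19 with 500 kb added on each side and 0.050 to 0.16 with 1 library left out. Between SCC25 and SCC6 it was -0.38 in the cetuximab libraries, -0.050 with centring, -0.050 without the filter and -0.37 in the region without a peak.

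Of the regions named, those that turned direction had not passed in the first place, apart from +102.0 kb between SCC25 and SCC1 (0.105 with background scaling). With centring these were +236.3 kb in SCC1 (0.057) and SCC25 (0.066) and, in SCC6, -85.6 kb (-0.030) and +46.6 kb (-0.061). With background scaling they were +236.3 kb in SCC6 (0.22) and, in SCC25, the promoter (-0.18) and +90.5 kb (-0.19). With quantile normalization +236.3 kb gave 0.044 in SCC6 and 0.056 in SCC25, and with edgeR and DESeq2 0.065 and 0.071 in SCC25. With the GC trend removed +236.3 kb gave 0.12 and +46.6 kb -0.023 in SCC6, and DESeq2 gave -0.00070 for the latter. With 1 library left out, +173.8 kb ran from -0.0026 to 1.44 in SCC1, and in SCC6 -85.6 kb ran from -0.014 to 0.29, +236.3 kb from -0.057 to 0.073 and +46.6 kb from -0.017 to 0.18. In SCC25, +236.3 kb ran from -0.082 to 0.056. Depth limits the regions near the floor of 1 read, where intervals and floors cover counting error only.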

Other observations

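Over the 17 libraries, the promoter regions most like the EGFR promoter region in log2(signal + 1) were those of CLIC3 (Pearson's r = 0.922), DNAH2 (0.903), AJUBA (0.898), IPO13 (0.881) and B3GAT3 (0.879), of 13231 genes with a median r of 0.325. This is a description, since the libraries share line, treatment and depth. CLIC3, an intracellular chloride channel protein, had group means of 99.9 and 252 (PBS and cetuximab) in SCC1, 174 and 247 in SCC6, and 94.9 and 119.7 in SCC25, and AJUBA, a LIM domain protein of cell junctions, 65.2 and 146, 137.5 and 190, and 61.9 and 81.4.

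The number of peaks called in the EGFR interval per library ran from 7 in SCC1 cetuximab replicate 2, the shallowest library, to 36 in SCC6 cetuximab replicate 3 and SCC25 PBS replicate 1. The peak at the EGFR start site had a fold enrichment of 2.19 to 5.29 in the 16 libraries that had one, and its width ran from 73 bases in SCC1 PBS replicate 3 to 672 in SCC6 cetuximab replicate 3.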
